A study of Rattus norvegicus with 8 samples.

Results

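The fibrillar collagens are the chains that form the banded fibrils of connective tissue. The 8 genes described here, Col1a1, Col1a2, Col2a1, Col3a1, Col5a1, Col5a2, Col5a3 and Col11a1, were taken by gene symbol from a table of 31699 rows, in which each symbol matched 1 row. Of the 8 genes, 7 had a mean of at least 1 TPM (a transcript level corrected for length and scaled to the same total in every sample) over the 8 samples and were among the 13103 genes tested. Col2a1 lay below that limit and is given by its values alone.

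A fibrillar collagen is made as a procollagen, in which 3 chains wind into a long triple helix flanked by propeptides. Prolines and lysines of the chains are hydroxylated in the endoplasmic reticulum, the propeptides are removed outside the cell, and the trimmed molecules pack side by side into fibrils that lysyl oxidases crosslink. Type I collagen, built of α1 and α2 chains, gives the outer annulus fibrosus its tensile strength, while type II collagen marks cartilage, the inner annulus and the nucleus pulposus. Type III collagen is a trimer of a single chain found in thinner fibrils, and the minor types V and XI start fibrils and limit their diameter.

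The annulus fibrosus is the outer ring of the intervertebral disc, and its cells (AFCs) came from Sprague Dawley rats, with the tissue of 8 rats pooled for each isolation. Every sample carried a lentiviral vector at an MOI of 20 for 24 h, either the control vector pLVX-shRNA-Puro (Lv-Ctrl, 4 samples) or pLVX-shRNA-Puro-Piezo1, whose hairpin targets the mechanosensitive channel Piezo1 (Lv-Piezo1, 4 samples). All samples were also exposed to cyclic mechanical stretch (CMS) at 20% elongation and 0.5 Hz for 36 h, so no unstretched or uninfected cells entered the comparison. The study describes 4 independent repeats and counts cells of the same isolation under different treatments as a single repeat. Samples of Lv-Ctrl and Lv-Piezo1 may therefore share an isolation, but the labels do not say which isolation a sample came from.

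Piezo1, the gene targeted by the hairpin, measured 26.7 to 33.0 TPM in Lv-Ctrl and 37.7 to 41.4 TPM in Lv-Piezo1, a difference against the label (log2 fold change 0.38, SE 0.06, limma adjusted p = 8.6e-04). The groups are therefore named by their labels, and every direction below refers to the libraries so labelled. The study reports that the knockdown by the hairpin was verified separately, and those values were not compared with these. In the table as a whole, 1005 of 13103 genes (7.67%) passed an adjusted p below 0.05 with a log2 fold change of at least 1, and 4.91% of the tested genes passed it as higher and 2.76% as lower. The median log2 fold change of all tested genes was 0.14, and median-ratio scaling of the samples brought it to -0.0046. Of the calls, the higher ones made up 64.1% on the deposited scale, 52.3% when the samples were scaled by median ratios and 48.8% when they were quantile normalized. Lv-Ctrl replicate 3 held the lowest value of its group in 48.5% of the tested genes, and Lv-Piezo1 replicate 4 the highest value of its group in 42.7%. In a bulk sample, fewer cells of a type and less RNA per cell cannot be told apart.

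The labelled cell type was checked against marker lists. Of 9 markers of annulus fibrosus cells or fibroblasts, 8 had a mean of at least 1 TPM, with a summed level of 3157 to 3490 TPM in Lv-Ctrl and 2569 to 2665 TPM in Lv-Piezo1, and Tnmd, a marker of mature tendon cells, was listed at or near 0. The markers of this sum went both ways, with Dcn at 1456 and 519 TPM (means of Lv-Ctrl and Lv-Piezo1), Thy1 at 1150 and 1470 TPM and Lum at 422 and 435 TPM. The 7 endothelial markers in the table summed to at most 0.62 TPM in any sample. Of the 8 leukocyte markers, Adgre1, Cd163, C1qa and Tyrobp were listed at 0 in all samples and Cd68 alone reached a mean of 1 TPM, while the sum of the 8 was 0.64 to 2.3 TPM in Lv-Ctrl and 11.5 to 13.9 TPM in Lv-Piezo1. The sum of the 9 smooth muscle or pericyte markers moved with the groups, from 241 to 253 TPM in Lv-Ctrl and from 1982 to 2072 TPM in Lv-Piezo1, with 8 of the 9 at a mean of at least 1 TPM and none listed at 0 throughout. The sum of the 5 adipocyte markers also moved, from 3.07 to 4.64 TPM and from 25.9 to 26.7 TPM, through Lpl and Fabp4. The 9 nucleus pulposus or chondrocyte markers in the table summed to 46.3 to 55.3 TPM and 71.7 to 76.8 TPM with Tbxt at 0, the 7 osteoblast markers to 192 to 220 TPM and 161 to 175 TPM with Bglap at 0 (Ibsp lower in Lv-Piezo1, Runx2 and Dmp1 higher), and the 5 Schwann or neural markers to 6.35 to 7.58 TPM and 10.5 to 12.1 TPM with Sox10 at 0. The part of these markers in the collagen values was not tested.

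The fibrillar collagen transcripts took a larger share of the RNA in Lv-Piezo1. Their summed level was 6965, 7152, 6250 and 6811 TPM in Lv-Ctrl replicates 1 to 4, and 11709, 11394, 11770 and 12272 TPM in Lv-Piezo1 replicates 1 to 4. As a share of all TPM this was 0.679% ± 0.0389 in Lv-Ctrl and 1.18% ± 0.0364 in Lv-Piezo1 (SD, n = 4 each), and the ranges of the groups did not overlap. The order of the levels was the same in all 8 samples, from Col1a1 through Col1a2, Col5a2, Col3a1, Col5a1, Col11a1 and Col5a3 to Col2a1. Only the neighbours Col5a1 and Col11a1 overlapped between samples of a group, in both groups. Col1a1 ranked between 24 and 34 among all rows in Lv-Ctrl and between 9 and 11 in Lv-Piezo1, and the type I chains together made up most of the fibrillar pool, with 48.3% for Col1a1 and 34.1% for Col1a2 in Lv-Ctrl and 49.5% and 32.2% in Lv-Piezo1. The share of Col5a2 in the pool was 11.0% ± 0.407 in Lv-Ctrl and 12.9% ± 0.163 in Lv-Piezo1 (SD, n = 4 each).

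**Figure D1:**
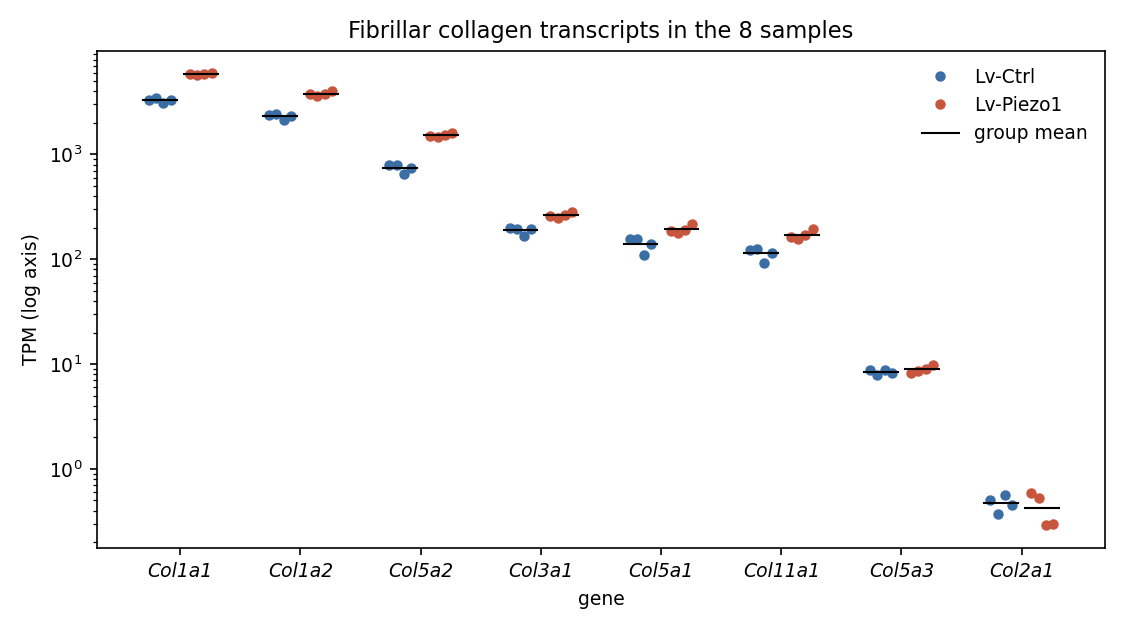
TPM of the 8 fibrillar collagen genes on a log axis, with a point for each sample (4 Lv-Ctrl, 4 Lv-Piezo1) and a line at the group mean. The order of the genes was the same in every sample, the groups separated in 6 genes, and Col5a3 and Col2a1 overlapped.

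Of the 7 tested genes, 6 had an adjusted p below 0.05 in limma, all 6 of them higher in Lv-Piezo1, where 58.2% of all tested genes passed this limit and 41.9% passed it as higher. The same 6 genes had no overlap between the groups, as did 54.2% of the tested genes, 39.8% of them as higher. Only Col5a2 also passed the fold change threshold (1 of 7, against 7.67% of the tested genes). All changes are on the log2(TPM + 1) scale. The median log2 fold change of the 7 genes was 0.59, against 0.14 over all tested genes, and after median-ratio scaling it was 0.43, against -0.0046.

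Col1a1 (ENSRNOG00000003897) encodes the α1 chain of type I collagen. It measured 3319, 3432, 3103 and 3274 TPM in Lv-Ctrl replicates 1 to 4 and 5862, 5696, 5841 and 5942 TPM in Lv-Piezo1 replicates 1 to 4. Every Lv-Piezo1 sample lay above every Lv-Ctrl sample, and the replicates of a group differed by little (SD 137 and 103 TPM). The mean was 1.78 times that of Lv-Ctrl, a log2 fold change of 0.83 (SE 0.04, limma adjusted p = 1.3e-07, where SE is the standard error and p was adjusted by Benjamini-Hochberg over every tested gene). Its partner Col1a2 (ENSRNOG00000011292), the α2 chain, measured 2365, 2449, 2117 and 2334 TPM in Lv-Ctrl and 3741, 3651, 3768 and 4021 TPM in Lv-Piezo1, again without overlap. Its log2 fold change was 0.71 (SE 0.05, limma adjusted p = 2.9e-06). Neither chain reached the fold change threshold of 1.

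Col3a1 (ENSRNOG00000003357), the chain of type III collagen, lay more than an order of magnitude below the type I chains. It measured 198, 194, 168 and 194 TPM in Lv-Ctrl and 256, 248, 263 and 280 TPM in Lv-Piezo1. The groups did not overlap, and the log2 fold change of 0.48 (SE 0.06, limma adjusted p = 1.2e-04) stayed below the threshold. After median-ratio scaling it was 0.31 (limma adjusted p = 1.7e-04).

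The chains of type V collagen differed among themselves. Col5a2 (ENSRNOG00000003736), the α2 chain, measured 795, 790, 651 and 745 TPM in Lv-Ctrl and 1491, 1458, 1528 and 1606 TPM in Lv-Piezo1. It was the only fibrillar collagen gene that rose past the threshold, by 1.03 on the log2 scale (SE 0.06, limma adjusted p = 1.4e-06), and its mean was 2.04 times that of Lv-Ctrl. The call rested on the threshold's position: the 95% interval ran from 0.89 to 1.18, and the log2 fold change was 0.97 without Lv-Ctrl replicate 3 and 0.87 after median-ratio scaling. Col5a1 (ENSRNOG00000008749), the α1 chain of the same molecule, measured 155, 155, 109 and 141 TPM in Lv-Ctrl and 187, 176, 189 and 218 TPM in Lv-Piezo1. The low value belonged to Lv-Ctrl replicate 3, and the groups did not overlap with or without it. The log2 fold change of Col5a1 was 0.47 (SE 0.11, limma adjusted p = 0.0064). It was 0.35 without that sample and 0.31 after median-ratio scaling (limma adjusted p = 0.019 for the latter). Col5a3 (ENSRNOG00000020525), the α3 chain, had 8.76, 7.85, 8.71 and 8.17 TPM in Lv-Ctrl and 8.31, 8.55, 8.95 and 9.86 TPM in Lv-Piezo1. The groups overlapped, and the difference of 0.08 on the log2 scale was not separable from 0 (95% interval -0.07 to 0.23, limma adjusted p = 0.32). It changed sign with the scaling, to -0.066 with median-ratio scaling and -0.10 with quantile normalization (limma adjusted p = 0.40 and 0.19).

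Col11a1 (ENSRNOG00000023148), the α1 chain of type XI collagen, which can also join type V chains in 1 molecule, measured 124, 124, 91.5 and 115 TPM in Lv-Ctrl. In Lv-Piezo1 it measured 163, 155, 171 and 194 TPM. All samples of Lv-Piezo1 lay above those of Lv-Ctrl, with a log2 fold change of 0.59 (SE 0.10, limma adjusted p = 0.0011) and of 0.49 without Lv-Ctrl replicate 3. Col2a1 (ENSRNOG00000058560), the chain of type II collagen, had 0.5, 0.37, 0.56 and 0.45 TPM in Lv-Ctrl and 0.59, 0.53, 0.29 and 0.3 TPM in Lv-Piezo1. The groups overlapped.

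A two-sided exact permutation test, which runs through 70 relabelings, gave p = 0.029 for each of the 6 genes whose groups did not overlap. Any gene without overlap gets this value, the lowest possible with 4 samples in each group. For Col5a3 the same exact test gave p = 0.26. Of the other fibrillar collagen genes, which are not among the 8, only Col27a1 reached the limit for testing, at a level above that of Col5a3. Col27a1 had 12.6 ± 1.00 TPM in Lv-Ctrl and 19.0 ± 1.13 TPM in Lv-Piezo1 (SD, n = 4 each). Its log2 fold change was 0.56 (limma adjusted p = 9.8e-05). Col11a2, the partner chain of Col11a1 in cartilage, had 0.55 to 0.82 TPM and 0.98 to 1.09 TPM, and Col24a1 had 0.26 to 0.44 TPM and 0.53 to 0.62 TPM, both below the limit for testing.

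**Figure D2:**
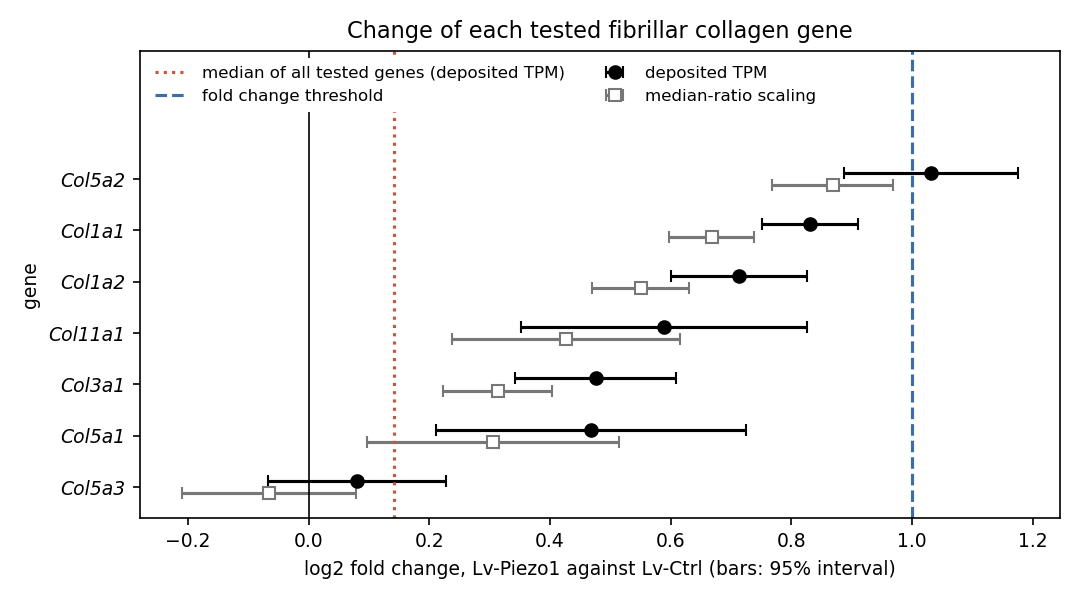
Log2 fold change of the 7 tested fibrillar collagen genes, Lv-Piezo1 against Lv-Ctrl, with 95% intervals from limma, on the deposited TPM and after median-ratio scaling. Col5a2 alone lay past the threshold of 1 on the deposited values (1.03) and no gene did after scaling, where Col5a3 turned from 0.08 to -0.066.

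The ratio of chains within a sample does not depend on a constant factor that scales that sample. Of the 11 ratios planned, 10 could be computed, since Col2a1 lay below the limit. Of the 10, 8 separated the groups without overlap. The 10 ratios are built from 7 genes and some follow from others, so they are not separate results. Among single tested genes 54.2% did not overlap, and the share over ratios of other gene pairs was not computed. For the 8 ratios without overlap the exact two-sided permutation test gave p = 0.029 (Benjamini-Hochberg adjusted over the 10 ratios, p = 0.036). Any ratio without overlap gets this p, the lowest possible with 4 samples in each group, so it only restates the separation. For the ratios that overlapped the exact permutation test gave p = 0.057.

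In type I collagen, which takes up more α1 than α2 chains, the Col1a1 to Col1a2 ratio was 1.40, 1.40, 1.47 and 1.40 in Lv-Ctrl replicates 1 to 4. In Lv-Piezo1 it was 1.57, 1.56, 1.55 and 1.48. The ratio was higher in Lv-Piezo1 by 0.12 on the log2 scale (SE 0.03), and the interval of the exact permutation test at a level of 97.1% ran from 0.01 to 0.16. The highest Lv-Ctrl value, in replicate 3, and the lowest Lv-Piezo1 value, in replicate 4, nearly met.

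The Col3a1 to Col1a1 ratio, a measure of type III against type I transcripts, was 0.0597, 0.0565, 0.0541 and 0.0591 in Lv-Ctrl and 0.0437, 0.0436, 0.0451 and 0.0471 in Lv-Piezo1. All Lv-Piezo1 samples lay below all Lv-Ctrl samples, with a mean difference of -0.35 on the log2 scale (SE 0.04). Against Col1a2 the difference was -0.24 (SE 0.02). Col3a1 transcripts were therefore higher in Lv-Piezo1 in level and lower relative to type I chains.

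The largest differences among the 10 ratios were those of Col5a3 and Col5a1 to Col5a2, within type V collagen. The common form of this collagen pairs α1 chains with a lesser number of α2 chains. The Col5a1 to Col5a2 ratio was 0.195, 0.196, 0.168 and 0.189 in Lv-Ctrl and 0.125, 0.121, 0.124 and 0.136 in Lv-Piezo1, so the α2 transcript exceeded the α1 transcript in all samples. The difference was -0.56 on the log2 scale (SE 0.06, interval at the 97.1% level -0.70 to -0.30). For Col5a3 against Col5a2 it was -0.94 (SE 0.09), and for Col5a3 against Col5a1 -0.38 (SE 0.14), which without Lv-Ctrl replicate 3 was -0.25. Against type I, Col5a2 was relatively higher, with a Col5a2 to Col1a1 ratio of 0.227 ± 0.0123 in Lv-Ctrl and 0.261 ± 0.0072 in Lv-Piezo1 (SD, n = 4 each), a log2 difference of 0.20.

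Col11a1 and Col5a1 stayed close together. Their ratio was 0.798, 0.803, 0.837 and 0.820 in Lv-Ctrl and 0.873, 0.879, 0.906 and 0.888 in Lv-Piezo1, a log2 difference of 0.12 (SE 0.02) without overlap. The ratios of these genes to Col1a1 overlapped between the groups. For Col5a1 to Col1a1 the log2 difference was -0.36 (SE 0.11, interval at the 97.1% level -0.59 to 0.06), and for Col11a1 to Col1a1 it was -0.24 (SE 0.10, interval -0.45 to 0.15). The overlap lay between Lv-Ctrl replicate 3 and Lv-Piezo1 replicate 4, and without the former these ratios no longer overlapped, at log2 differences of -0.45 and -0.31.

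**Figure D3:**
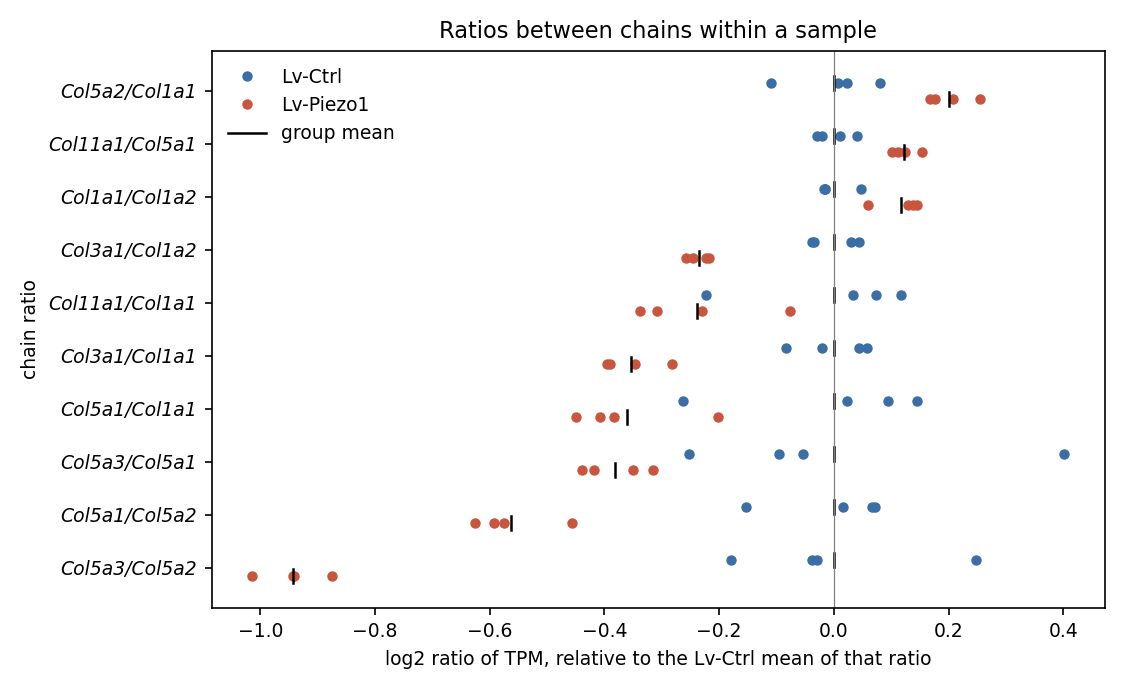
Log2 ratio of the TPM of the chains within each sample, relative to the Lv-Ctrl mean of that ratio, for 10 ratios, with a point for each of the 8 samples and a line at the group mean. The ratio of Col5a3 to Col5a2 differed most (-0.94), the ratio of Col1a1 to Col1a2 by 0.12, and Col5a1/Col1a1 and Col11a1/Col1a1 overlapped.

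The samples of a group were also compared by their deviations from the group mean. Lv-Ctrl replicate 3 held the lowest value of its group in 6 of the 8 genes, where 48.5% of the tested genes had their lowest value in that sample, and Lv-Piezo1 replicate 4 the highest in 7 of the 8, against 42.7%. The deviation of Lv-Ctrl replicate 3 from its group mean was -0.08 on the log2 scale for Col1a1, -0.13 for Col1a2, -0.16 for Col3a1, -0.19 for Col5a2, -0.30 for Col11a1 and -0.34 for Col5a1. Col5a3 went the other way, at 0.06. Median-ratio scaling left -0.0052 for Col1a1 and -0.27 for Col5a1. Sequencing depth is not known for these samples, and its part in these deviations was not tested.

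The SD over the 4 Lv-Ctrl samples was 0.24 for Col5a1 and 0.21 for Col11a1 on the log2 scale, but 0.03 for their ratio. Over the other 3 Lv-Ctrl samples the SDs were 0.08, 0.06 and 0.02. For the type I chains, the SDs were 0.06 and 0.09, and 0.03 for their ratio. These spreads describe 4 samples each and were not tested.

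**Figure D4:**
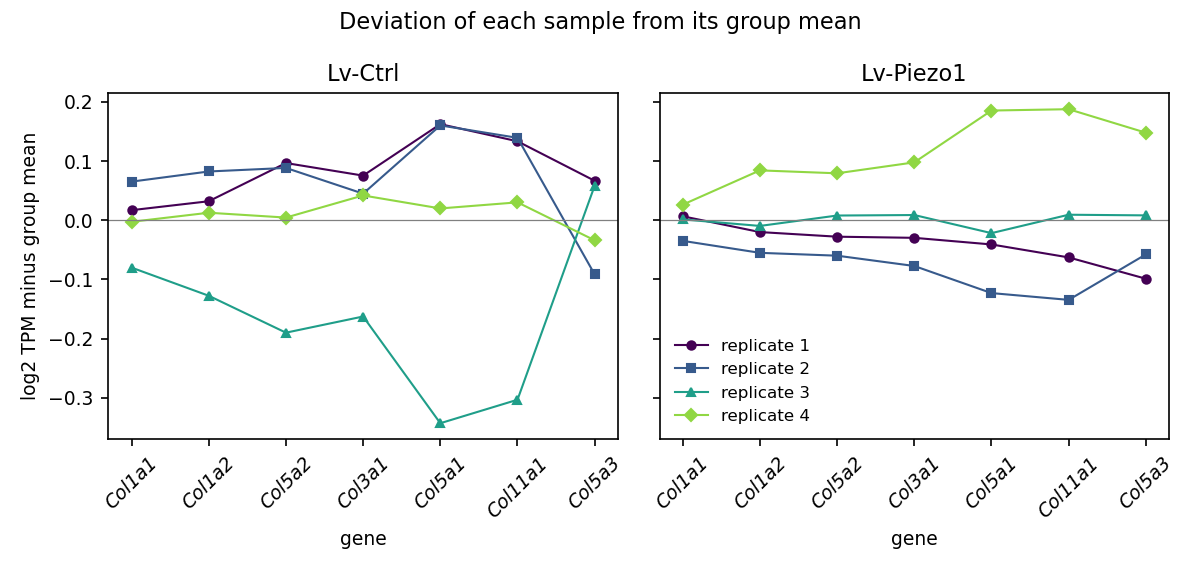
Deviation of log2 TPM from the group mean for the 7 tested fibrillar collagen genes, with a line for each replicate, Lv-Ctrl on the left and Lv-Piezo1 on the right. Lv-Ctrl replicate 3 lay lowest in 6 of the genes, down to -0.34 for Col5a1, and Lv-Piezo1 replicate 4 lay highest in all 7, up to 0.19.

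The genes whose pattern over the 8 samples was nearest to each chain were found by the distance of their centred log2(TPM + 1) values, over 9060 other genes with a symbol and a mean of at least 5 TPM. For Col5a2 these were Actn4, Adamts10 and Actn1 (distances 0.04, 0.09 and 0.09), of which Actn4 and Actn1 encode the actin-crosslinking α-actinins. For Col1a2 they were Ptgfrn, Col4a1, a chain of basement membrane collagen, and Kank1 (0.06, 0.07 and 0.08), and for Col1a1 they were Tubb6, Slc19a1 and Ezr (0.07, 0.07 and 0.08). For Col11a1 they were Ano6, Cald1 and Scd2 (0.07, 0.10 and 0.12), for Col5a1 they included Fat1 and Rbpj (0.09 and 0.10), for Col3a1 Kdm2b, Snx18 and Lrrfip1 (0.07, 0.07 and 0.08), and for Col5a3 H3f3c, Ccdc174 and Mrpl13 (0.11, 0.12 and 0.13). Among the chains themselves, Col5a1 and Col11a1 were closest (0.18, with 47 genes nearer to Col5a1 and 35 nearer to Col11a1), followed by Col1a1 and Col1a2 (0.19, with 73 and 118 genes nearer). These distances are dominated by the difference between the groups and describe these samples only.

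Because most of the chains were higher together, the sequences before their annotated starts were set side by side. Sequences for Col1a2, Col5a1, Col5a2, Col5a3 and Col11a1 were taken from RefSeq (build GRCr8), and Col1a1, Col2a1 and Col3a1 had no entry. The 120 bases before the annotated start are printed 5′ to 3′ on the strand of the gene, and capitals mark matches on either strand to the TATA box TATAAA, the CCAAT box CCAAT, the GC box GGGCGG and the E box CANNTG. They lie at chr4:33518437-33518556 (plus strand) for Col1a2, chr3:31606760-31606879 (plus) for Col5a1, chr9:55090152-55090271 (minus) for Col5a2, chr8:27625949-27626068 (minus) for Col5a3 and chr2:204509016-204509135 (plus) for Col11a1.
Col1a2: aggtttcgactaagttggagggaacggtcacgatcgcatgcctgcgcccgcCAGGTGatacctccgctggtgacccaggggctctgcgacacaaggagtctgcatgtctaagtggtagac
Col5a1: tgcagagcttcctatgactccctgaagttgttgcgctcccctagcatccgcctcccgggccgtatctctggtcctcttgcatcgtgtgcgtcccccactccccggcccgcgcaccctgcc
Col5a2: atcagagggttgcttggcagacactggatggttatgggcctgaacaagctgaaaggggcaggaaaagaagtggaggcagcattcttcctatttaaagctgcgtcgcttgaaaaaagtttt
Col5a3: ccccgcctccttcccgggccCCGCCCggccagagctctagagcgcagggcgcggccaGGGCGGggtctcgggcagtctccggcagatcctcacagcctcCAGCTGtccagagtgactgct
Col11a1: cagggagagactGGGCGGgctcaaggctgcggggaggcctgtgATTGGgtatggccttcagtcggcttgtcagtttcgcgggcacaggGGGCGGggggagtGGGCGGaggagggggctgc

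No motif of the 4 was found in all 5 windows. The GC box was in Col5a3 (2 matches) and Col11a1 (3 matches), where 25.3% of the 27457 promoters of the table held it in the same window, and the E box was in Col1a2 and Col5a3, against 39.1%. Within these windows the CCAAT box was in Col11a1 alone, against 20.1%, and TATAAA was in none of the 5, against 6.81%. Col5a2, the gene past the threshold, and Col5a1 held none of the 4. The windows also differed in base composition, from 46.7% G and C in Col5a2 to 73.3% in Col5a3, with a median of 54.2% over all promoters. A match is a description of letters and not a binding site. The annotated start was not checked against the place where transcription begins. A window can therefore lie outside the promoter, and a motif missing from it may still be in the promoter. In the RefSeq gene order Col3a1 and Col5a2 are neighbouring protein-coding genes, and their log2 fold changes were 0.48 and 1.03.

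The other genes of collagen synthesis and fibril assembly were taken from 9 lists of 102 genes, of which 98 matched a symbol and 82 were tested. Of these 82 genes, 6 rose and 6 fell past the threshold, against 4.91% and 2.76% of all tested genes, and 40 were higher and 21 lower at an adjusted p below 0.05 alone, against 41.9% and 16.3%. Among those that rose, Comp reached the limit for testing only through its level in Lv-Piezo1. The median log2 fold change of the 82 genes was 0.20, against 0.14 over all tested genes.

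In the list of procollagen modification and folding, 16 genes were tested and 2 rose past the threshold. These were P4ha2, from 47.9 ± 2.25 to 129 ± 3.62 TPM, and P4ha1, from 132 ± 10.5 to 290 ± 16.6 TPM (SD, n = 4 each), which encode catalytic subunits of the prolyl hydroxylase that stabilizes the triple helix (log2 fold changes 1.41 and 1.14). At an adjusted p below 0.05 alone, 12 genes were higher and 1 was lower (P3h2, named after its value was seen), where 41.9% and 16.3% of all tested genes were. Serpinh1, the collagen-specific chaperone HSP47, which was also named after its values were seen, had 1709 ± 72.9 and 1698 ± 31.0 TPM (SD, n = 4 each) and differed by -0.0090 on the log2 scale (limma adjusted p = 0.85). The difference in this chaperone was not separable from 0, with a 95% interval of -0.09 to 0.07.

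Outside the cell, the lists of propeptide removal (6 tested) and crosslinking (6 tested) held 1 call. This was Tll1, a tolloid protease that trims procollagen, which fell from 19.8 ± 2.06 to 8.32 ± 1.03 TPM (SD, n = 4 each). At an adjusted p below 0.05 alone, 3 genes of propeptide removal were higher and 2 lower. In crosslinking 4 were higher and 1 lower, where 41.9% and 16.3% of all tested genes were. The medians of these lists were 0.24 and 0.25. No gene of procollagen secretion (9 tested), of the collagen receptors (6 tested) or of the transcription factors (14 tested) passed the threshold, and their medians were 0.06, 0.55 and 0.09. In the list of proteins at the fibril surface, 3 of 16 tested genes rose and 2 fell, beside 4.91% and 2.76% of all tested genes. Postn, which encodes periostin, rose from 199 ± 14.6 to 582 ± 26.4 TPM and Fn1, which encodes fibronectin, from 1940 ± 242 to 4908 ± 297 TPM. Col12a1, a collagen that coats type I fibrils, fell from 1560 ± 203 to 517 ± 39.6 TPM, and Dcn, a proteoglycan that limits fibril growth, from 1456 ± 69.3 to 519 ± 14.9 TPM (SD, n = 4 each). The third gene that rose was Comp, a cartilage matrix protein that binds collagen, with a mean of 0.738 TPM in Lv-Ctrl and 2.86 TPM in Lv-Piezo1, named after its values were seen. Its Lv-Ctrl mean lay below the limit of 1 TPM, so Comp was tested only because of its level in Lv-Piezo1, and its call adds no support. In the list of collagen breakdown, 3 of 8 tested genes fell and 1 rose, beside 2.76% and 4.91% of all tested genes, and the median was -0.37. The list mixes proteases with protease inhibitors. Its tested inhibitors, Timp1 and Timp3, were both higher below the threshold and were named after their values were seen. Their log2 fold changes were 0.34 and 0.86 (limma adjusted p = 2.2e-04 and 6.6e-05). Mmp13, a collagenase that cuts fibrillar collagen, fell from 888 ± 57.3 to 227 ± 14.3 TPM and Ctsk, a lysosomal protease that degrades it, from 220 ± 5.01 to 73.3 ± 2.76 TPM. Mmp9, a gelatinase, rose from 4.51 ± 0.532 to 24.4 ± 1.31 TPM (SD over 4 samples). The third gene that fell there was Fap, a protease of activated fibroblasts, with a mean of 13.6 TPM in Lv-Ctrl and 5.08 TPM in Lv-Piezo1, also named after its values were seen. Comp aside, none of the list genes named as risen or fallen past the threshold overlapped between the groups. The highest adjusted p among them, from limma, was 9.6e-06, for Tll1.

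**Figure D5:**
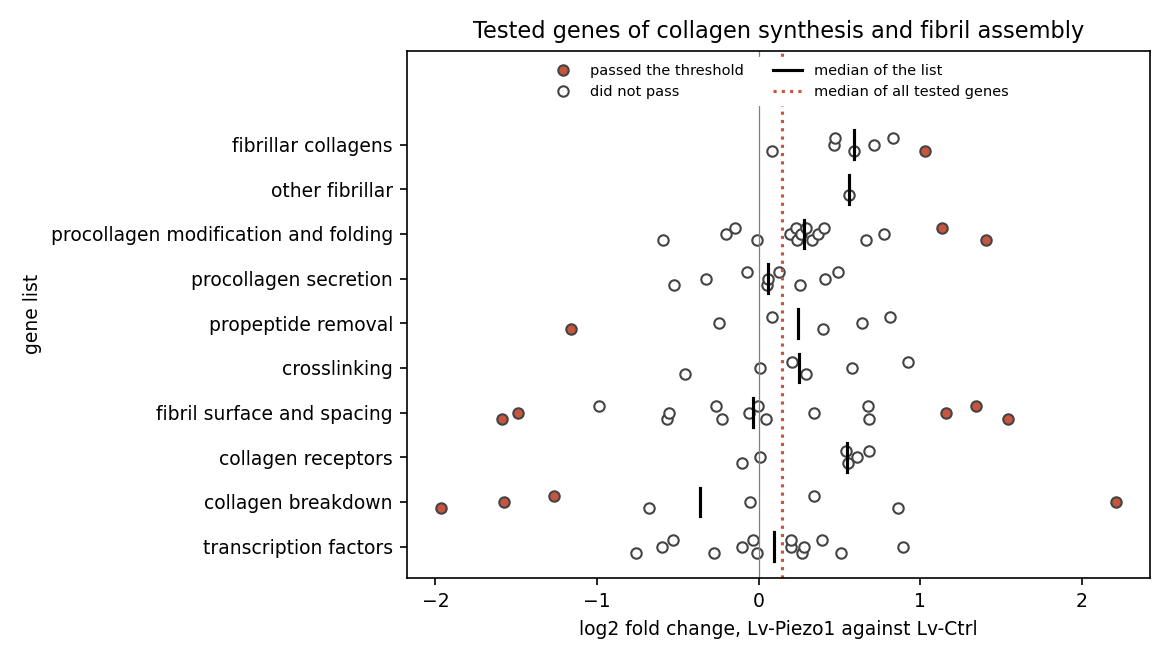
Log2 fold change of each tested gene, Lv-Piezo1 against Lv-Ctrl, for the fibrillar collagens and 9 lists of genes of collagen synthesis and fibril assembly, with filled points past the threshold and a line at the median of each list. The median was 0.59 for the fibrillar collagens and -0.37 for collagen breakdown, against 0.14 for all tested genes (dotted line). The breakdown list also holds the protease inhibitors Timp1 and Timp3.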

How the data were processed

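RNA-seq of AFCs under CMS was measured in 4 Lv-Ctrl and 4 Lv-Piezo1 samples. The authors discarded reads with adapter, poly-N or low quality, aligned the remaining ones by HISAT2 (rat genome) and assembled transcripts by StringTie. Deposited were TPM values, rounded by the authors to 2 decimals, in 1 column per sample, beside columns of group means. The methods name FPKM and DESeq, and the submitters' processing notes list mm10 and DESeq2, while the rows carry rat identifiers. How TPM was made, the annotation and the strandedness are not given in the sources used here. TPM keeps no sequencing depth, so depth is unknown, no counting interval is given and precision rests on the spread of 4 samples. Sample columns were matched to samples through the description label.

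Log2(TPM + 1) was fitted, for the 13103 genes whose mean reached 1 TPM, with limma 3.58.1 in R 4.3.3 (empirical Bayes with trend, all 8 samples, no block, Benjamini-Hochberg adjustment over all tested genes), and a call required adjusted p below 0.05 together with a log2 fold change of 1 or more in size. Fold changes are on the log2(TPM + 1) scale, which understates those of low genes. Chain ratios used TPM without a pseudocount, and single values were tested by exact permutation (two-sided, 70 relabelings). The interval of a ratio at the 97.1% level holds the shifts that this test does not reject. The fit was tested on simulated data. The members and lists were chosen with earlier results of these data known.

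The genes named are the 8 collagens, Piezo1, the other fibrillar collagen genes, up to 2 rises and 2 falls among the calls without overlap in each list, and the 3 genes nearest to each chain, of which 1 is not reported here. Others are marked as named after their values were seen, and markers serve only the check of the cell type. Symbols were matched without regard to case. The alternatives were a pseudocount of 0.1, other limits on low TPM, other scalings, totals without mitochondrially encoded genes or without the 8 collagens, no trend, a replicate block, no fold change threshold, and leaving out each sample in turn.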

Additional observations from a re-analysis of the deposited data

Results flagged for a closer look

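Among 38 sets of 4 samples (the levels of the 8 genes, 10 ratios and the share of all TPM in each group), a sample far from the others of its group was found in 2, and chance gives about 1 in 20. Both concern Lv-Ctrl replicate 3. Col3a1 measured 168 TPM there, against 194 to 198 TPM in the other Lv-Ctrl samples (gap over range 0.85), and the log2 fold change of Col3a1 was 0.42 without this sample. The Col1a1 to Col1a2 ratio was 1.47 there, against 1.40 in the other Lv-Ctrl samples (gap over range 0.97), and the log2 difference of this ratio was 0.13 without this sample.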

How the results depend on the processing

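Of the fibrillar collagen genes, 1 passed the threshold (Col5a2), and 0 did after median-ratio scaling, where Col5a2 was at 0.87. Leaving out each sample in turn gave 0 to 1, with 0 without Lv-Ctrl replicate 3, where Col5a2 was at 0.97, and without a fold change threshold 6 passed. The 6 genes with an adjusted p below 0.05 stayed higher at that limit under each of the 17 alternative fits. Col5a3 turned to -0.066 with median-ratio scaling and -0.10 with quantile normalization. Over all genes, 1005 calls became 628 with a mean TPM of at least 5, where fewer genes were tested (9719), 7626 without a fold change threshold, 1438 with a pseudocount of 0.1, and 1006 to 1030 when a sample was left out. With the replicate number as a block, 1004 genes were called. Col5a2 stayed at 1.03, since a block in this balanced design leaves the difference of means unchanged. The replicate numbers did not reveal a pairing. The deviations of same-numbered samples from their group means correlated at -0.06 to -0.01, and 0 of the 4 Lv-Ctrl samples correlated best with its own number. This does not show that the samples are unpaired, since the isolation of each is not given. The 10 ratios and the share of all TPM kept their direction under each alternative run. For the share and the ratios without overlap, leaving out a sample could not have reversed it. The replicate block could not change any ratio difference. The ratio of Col5a3 to Col5a1 moved most, from a log2 difference of -0.38 to -0.25 without Lv-Ctrl replicate 3, by less than the SD of Lv-Ctrl (0.28) and more than that of Lv-Piezo1 (0.06). The count of calls over the lists was 12, stayed at 12 to 13 when a sample was left out, and was 11 with a mean TPM of at least 5. What depth limits cannot be stated, because TPM keeps none. The limma p-values set each group difference against a spread estimated from these samples and moderated over all tested genes. The isolation of each sample is not known, so the tests do not separate variation between isolations.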
